A study of Mus musculus with 19 samples.

Results

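Sensory neurons of the dorsal root ganglia (DRGs) detect heat, cold, irritants, touch, ATP and acid through transducer channels, and 9 genes that encode such channels are described here. They are Trpa1, Trpv1, Trpv2, Trpm8 and Trpc1 of the transient receptor potential (TRP) family, the mechanically gated channel Piezo2, the ATP receptor P2rx3, and the acid-sensing channels Asic1 and Asic3. They were chosen by name as sensory transducers, starting from the lower value of Trpa1 after crush in neurons with α9 integrin and kindlin-1, and all 9 were found among the 12629 genes of the expression table. RNA was taken from DRG neurons that FACS had sorted by their GFP. GFP-naive (n = 5) carried AAV5-fGFP alone and GFP-crush (n = 4) carried the same virus with the dorsal roots crushed during the injection. The α9k1-naive (n = 6) and α9k1-crush (n = 4) groups carried AAV5-α9-V5 with AAV5-kindlin1-GFP, without and with the crush. Viral expression was driven by the CMV promoter for fGFP and kindlin-1 and by the CAG promoter for α9, neither of which is restricted to a type of sensory neuron. The DRGs were those of the cervical levels, collected 8 weeks after the injection. As sorting used GFP alone, which in the α9k1 groups marks the kindlin-1 virus, a sorted α9k1 neuron need not carry α9. The sample labels give C57BL/6 mice, and the methods of the study give adult male Lewis rats.

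TRPV1 is opened by heat, acid and capsaicin, TRPA1 by electrophilic irritants, and TRPM8 by cooling and menthol. TRPA1 is found mostly within the TRPV1-expressing nociceptors, whereas TRPM8 marks a separate set of small neurons. PIEZO2 is the main transducer of light touch and proprioception and is prominent in large myelinated neurons. P2X3 is gated by ATP and is typical of non-peptidergic nociceptors, while ASIC1 and ASIC3 are opened by protons.

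Depth was 36.4 to 87.6 M read pairs per library. Between 47.5% and 54.1% of the reads were aligned to the mouse genome, with a mismatch rate of 3.87% to 4.05%. Ribosomal bases were 0.110% to 0.153% in GFP-naive, 0.072% to 0.132% in GFP-crush, 0.022% to 0.090% in α9k1-naive and 0.017% to 0.029% in α9k1-crush. The highest α9k1-naive value was that of replicate 6. The deposited values are log2 counts, normalized by the authors for gene length and depth, and a difference of 1 is a doubling. Their counting error cannot be given, as they are no longer counts, and the SD between libraries includes it. The labels were checked through the transgenes: Fermt1, which encodes kindlin-1, was between 0.42 and 0.80 in the 9 GFP libraries and between 5.18 and 7.73 in the 10 α9k1 libraries. Itga9 was between 0.90 and 2.40 in GFP libraries and between 2.38 and 7.51 in α9k1 libraries, and the lowest α9k1-naive library was within the GFP range. Of 10 pan-neuronal genes, Uchl1 had the highest level in every group. Their summed level (log2) was 12.86 to 13.18 in GFP-naive, 12.71 to 13.07 in α9k1-naive, 13.36 to 13.53 in GFP-crush and 13.25 to 13.28 in α9k1-crush. The summed markers of satellite glia were higher than this in every library (14.11 to 16.78), and Apoe alone made up most of that sum. Markers of Schwann cells and macrophages were measured as well. Group differences (log2FC, ± SE) were estimated with limma across all genes, with 3 covariates that summarize 48 sequencing metrics, and a gene was called when its p, adjusted by Benjamini and Hochberg, was under 0.1. These covariates differ between groups (34.5%, 52.2% and 74.5% of their variance lies between groups), and they raise the variance of the α9k1-crush versus GFP-crush difference from 0.5 to 3.11 units of the residual variance. Estimates without covariates are therefore given beside the main ones. The p-values measure the spread between these libraries.

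Without injury, Trpv1 was higher in α9k1 neurons than in GFP neurons and Piezo2 was lower, and no other channel tested passed the threshold. After the crush in GFP neurons, P2rx3 fell and the other 8 channels did not pass. None of the 8 channels tested passed for the α9k1 effect after crush in the fit with covariates.

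For the α9k1 effect without injury (α9k1-naive versus GFP-naive), 2 of 8 members were called, where 29.1% of all genes were (11.4% higher and 17.6% lower). Without covariates 3 of the 8 were called, beside 46% of all genes. For the crush effect in GFP neurons (GFP-crush versus GFP-naive), 1 of 9 was called, a lower one, where 23.1% of all genes were called (7.39% higher and 15.7% lower). Without covariates it was again 1 of 9, beside 31.1% of all genes. For the α9k1 effect after crush (α9k1-crush versus GFP-crush), 0 of 8 were called by limma, where 0.911% of all genes were called (0.728% higher and 0.182% lower). Of these 8, 0 had an unadjusted p under 0.05, and the fit without covariates called 3, where it called 58% of all genes. The members' median log2FC was -0.11 for the α9k1 effect without injury, -0.22 for that after crush and -0.03 for the crush effect, against -0.08, 0.01 and -0.08 over all genes. The share of members called was thus near that of all genes or below it. The comparison of levels below is within a gene, not between genes.

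**Figure D1:**
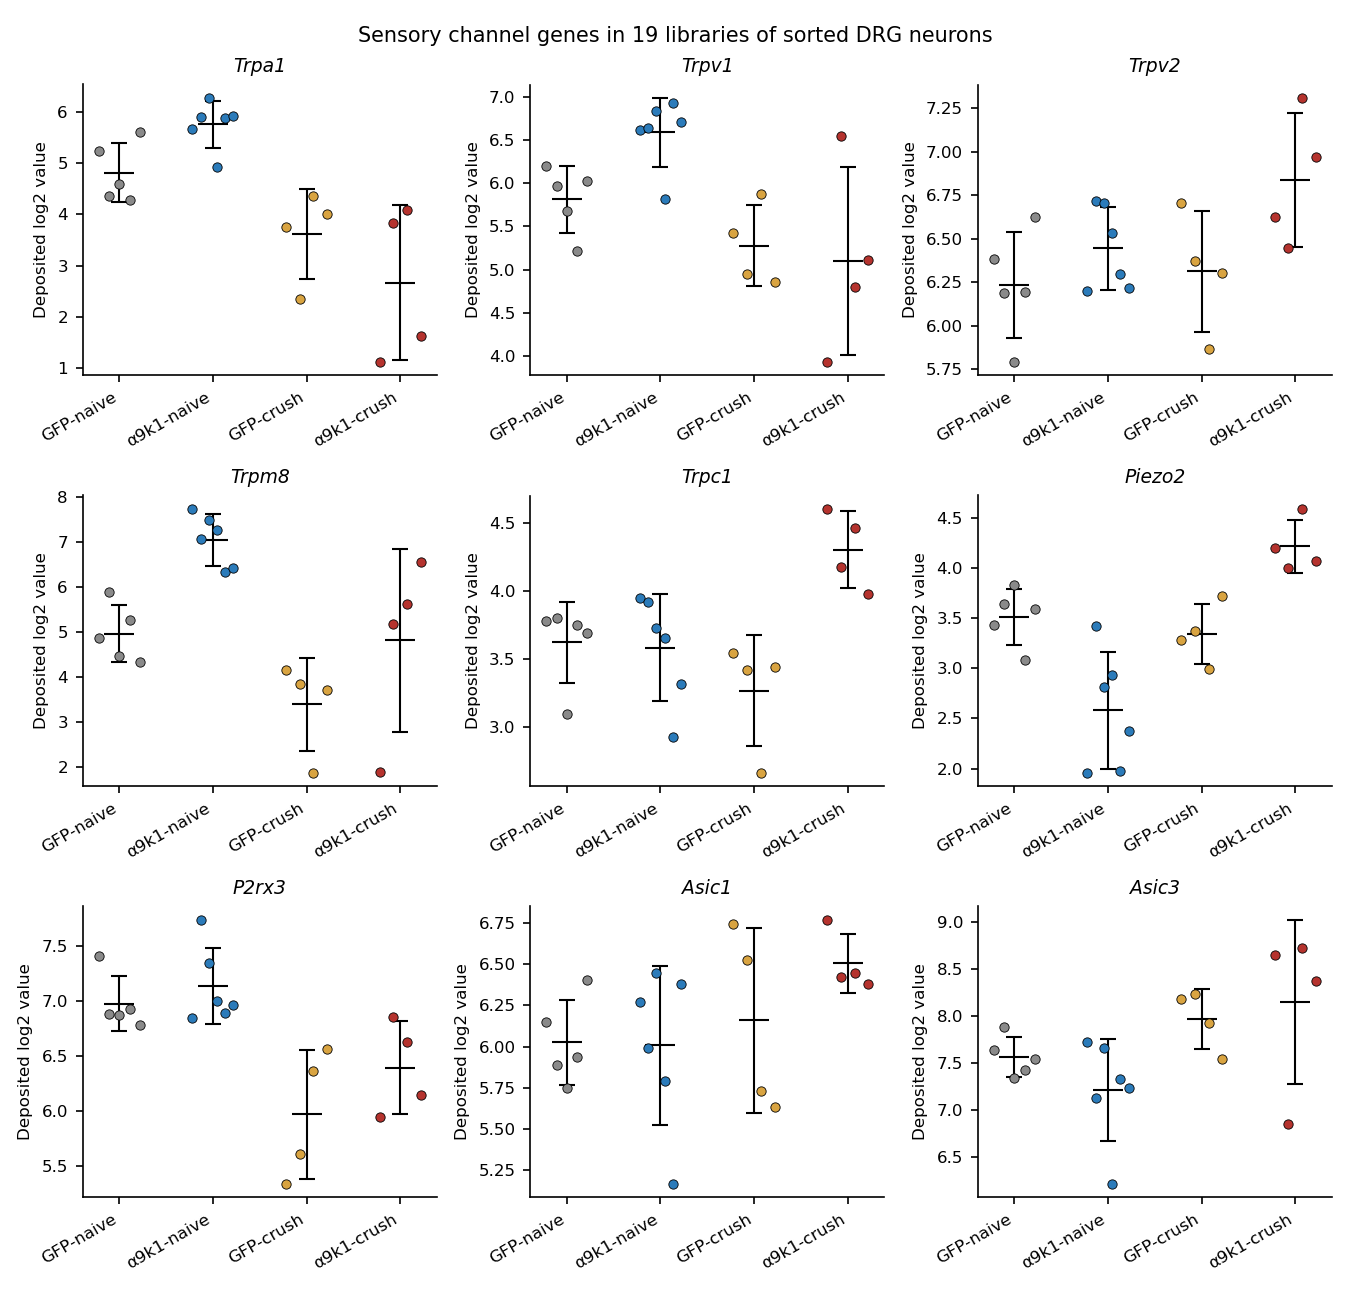
Deposited log2 values (y axis) of the 9 channel genes in the 19 libraries by group (x axis). Points are libraries, and the horizontal bar and whiskers are the group mean ± SD. The y axes differ between panels and do not start at 0. Trpa1, Trpv1, Trpm8 and P2rx3 had their highest means in α9k1-naive, and the others in α9k1-crush. Trpc1 and Piezo2 had 4 α9k1-crush libraries above all α9k1-naive, GFP-naive and GFP-crush libraries. Of all genes, 40.8% had no overlap in α9k1-crush versus GFP-crush, and 33.4% in α9k1-crush versus α9k1-naive.

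Trpa1 (ENSMUSG00000032769, chromosome 1, 14872648 to 14918862, minus strand, GRCm38), the irritant receptor of nociceptors, was the starting point of the choice. It was 5.25, 4.36, 4.59, 4.28 and 5.61 in the GFP-naive libraries, and in α9k1-naive it ranged from 4.92 to 6.28 with a median of 5.89. After crush it was 3.76, 2.35, 4.36 and 4.02 in GFP neurons and 1.11, 3.83, 4.09 and 1.62 in α9k1 neurons. The α9k1-crush libraries thus lay in a high and a low pair, and all 4 were below every α9k1-naive library, the contrast from which the gene was chosen. These groups did not overlap for 33.4% of all genes. Among the 4 groups the means fell in the order α9k1-naive (5.76), GFP-naive (4.82), GFP-crush (3.62) and α9k1-crush (2.67), and neighbours in this order overlapped. The difference α9k1-crush versus α9k1-naive was -3.92 ± 1.11 with covariates and -3.10 ± 0.52 without. It ranged from -4.93 without GFP-crush replicate 2 to -2.53 without α9k1-naive replicate 4, and was -7.00 when only the libraries compared were fitted. As these libraries chose the gene, no test is given for them. The α9k1 effects without injury (1.12 ± 0.61, and 0.95 without covariates) and after crush (-2.03 ± 1.34) share those libraries and are descriptions as well. The latter was -0.96 ± 0.57 without covariates, -0.77 without α9k1-naive replicate 4, -1.35 without α9k1-crush replicate 1, -4.01 without GFP-crush replicate 2 and -0.09 when only the libraries compared were fitted. The crush effect in GFP neurons compares groups that were not part of the choice, although its covariates and residual variance were fitted over all libraries. Here Trpa1 had a log2FC of -0.76 ± 0.62 with an adjusted p of 0.429 by limma, -1.20 ± 0.54 (adjusted p = 0.120) without covariates, and -0.10 without GFP-crush replicate 2, its lowest GFP library.

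Trpv1 (ENSMUSG00000005952, chromosome 11, 73234292 to 73261242, plus strand), the capsaicin and heat receptor, is the member whose values were most like those of Trpa1. Its promoter is shown because Trpv1 passed the test without injury, as 250 bases before and 50 after the start of transcription in RefSeq (GRCm38.p6). The window is chr11:73233899-73234198 on the plus strand, upstream of the gene start that the expression table uses. The window was searched on both strands for 6 motifs. TGTGGT is the core bound by RUNX factors and TGACTCA is the site of the factor AP-1. TGACGTCA stands for the cyclic AMP response element and TATAAA stands for the TATA box. CCAAT is known by its letters, and the string GGGCGG stands for the GC box. Capitals mark the matches, which in Trpv1 are the RUNX core from base -50 and CCAAT, read on the minus strand, from base -56.
Trpv1: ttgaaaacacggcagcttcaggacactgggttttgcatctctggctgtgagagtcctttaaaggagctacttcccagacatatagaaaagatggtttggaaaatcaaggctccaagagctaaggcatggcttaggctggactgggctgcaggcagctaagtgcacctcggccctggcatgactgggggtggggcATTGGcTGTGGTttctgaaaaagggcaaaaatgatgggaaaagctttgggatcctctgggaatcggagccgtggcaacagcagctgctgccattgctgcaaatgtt
The matches do not overlap. A RUNX core was found in 16.8% of 32851 promoters of this length and CCAAT in 37.4%, so neither is rare, and a match is not a measured binding site. The RefSeq table matched 6 of the 9 members. The promoters shown are those of the mouse, and as the methods of the study give rats, the animals studied need not carry these matches.

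Trpv1 was 6.19, 5.97, 5.68, 5.21 and 6.03 in GFP-naive, and in α9k1-naive it ranged from 5.82 to 6.93 with a median of 6.67. Of the 6 α9k1-naive libraries, 1 (replicate 4, 5.82) was within the GFP-naive range and the others were above it. The log2FC was 1.16 ± 0.43 (adjusted p = 0.067, limma), which is 2.24-fold higher, and 0.77 ± 0.34 (adjusted p = 0.082) without covariates. Single libraries decided the call: the adjusted p was between 0.104 and 0.139 without GFP-crush replicate 2 or 3, GFP-naive replicate 1 or 4, α9k1-crush replicate 3 or α9k1-naive replicate 5, with log2FC between 1.02 and 1.61 over all libraries left out. After crush, Trpv1 was 5.43, 4.95, 5.87 and 4.86 in GFP neurons and 3.93, 6.54, 4.81 and 5.11 in α9k1 neurons, which spanned the GFP range at both ends. The crush effect in GFP neurons was -0.67 ± 0.43 (adjusted p = 0.309), and -0.54 without covariates. The α9k1 effect after crush was -0.81 ± 0.94 (adjusted p = 0.862), and -0.18 without covariates. In α9k1 neurons the difference with crush was -2.65 ± 0.77 (-1.49 without covariates), a description as for Trpa1. The change of the α9k1 effect with crush (interaction) contains the comparison from which the choice started. For every member its values and p are therefore descriptions. For Trpv1 this interaction was -1.98 ± 0.89 with an adjusted p of 0.329, and -0.95 ± 0.52 without covariates. Without α9k1-crush replicate 2, whose value of 6.54 was the highest in its group, it was -2.25 with an adjusted p of 0.0989.

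Trpm8 (ENSMUSG00000036251, chromosome 1, 88277661 to 88389293, plus strand), the cold and menthol receptor, had the largest spread of the 9 within groups. Its promoter is shown for contrast with that of Trpv1, as the window chr1:88306485-88306784 on the plus strand, which lies inside the gene as the expression table gives it. Capitals mark a TATA box from base -30 and CCAAT, read on the minus strand, from base -245.
Trpm8: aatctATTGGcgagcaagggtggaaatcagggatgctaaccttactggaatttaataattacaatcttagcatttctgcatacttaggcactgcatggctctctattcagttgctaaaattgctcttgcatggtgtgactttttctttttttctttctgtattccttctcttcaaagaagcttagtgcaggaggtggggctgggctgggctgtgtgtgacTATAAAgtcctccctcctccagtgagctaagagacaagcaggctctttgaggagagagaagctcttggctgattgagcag
A TATA box was found in 13.6% of all promoters, and no RUNX core was found in this window.

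Trpm8 was 4.86, 5.89, 4.47, 5.28 and 4.35 in GFP-naive and 6.34 to 7.75, with a median of 7.17, in α9k1-naive. The groups did not overlap, as was true of 21.7% of all genes in this comparison. The difference in deposited values was 2.09 (adjusted p = 0.013 without covariates), but with covariates it was 0.996 ± 0.79 and did not pass (adjusted p = 0.399). With the libraries of these groups alone it passed (1.29, adjusted p = 0.042), as it did without α9k1-crush replicate 1 (1.18, adjusted p = 0.057), and without α9k1-naive replicate 6 it was 0.27. In GFP-crush it was 4.16, 3.85, 1.87 and 3.72, below every GFP-naive library, and 19.8% of all genes had no overlap of these groups. The log2FC was -1.19 ± 0.80 (adjusted p = 0.332) and -1.57 without covariates, and without α9k1-crush replicate 1 it was -1.38 (adjusted p = 0.043). In α9k1-crush it was 1.90, 5.18, 5.63 and 6.57, so that 3 libraries were above and 1 within the GFP-crush range. The α9k1 effect after crush was 0.09 ± 1.73 (adjusted p = 0.993) and 1.42 without covariates, and it was 1.37 without α9k1-crush replicate 1 and -1.35 without replicate 4. Replicate 1 was the lowest of its group for Trpa1, Trpv1 and Trpm8, whereas replicate 4 was low for Trpa1 and the highest for Trpm8. In the mouse annotation, antisense gene 4930453O03Rik shares 388 exonic bases with Trpm8. The libraries do not mark strand, so reads of the pair cannot be told apart there.

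Trpv2 (ENSMUSG00000018507, chromosome 11, 62574486 to 62600515, plus strand), a relative of TRPV1 found in larger neurons and outside them, varied least of the members within groups. It was between 5.79 and 6.62 in GFP-naive, 6.20 and 6.72 in α9k1-naive, and 5.86 and 6.71 in GFP-crush. In α9k1-crush it was 6.62, 6.44, 7.31 and 6.97, which overlapped with all other groups. It did not pass in any test with covariates (log2FC of -0.14 ± 0.22 for the α9k1 effect without injury, -0.26 ± 0.48 for that after crush and 0.37 ± 0.22 for the crush effect in GFP neurons). Without covariates the first was 0.21 and the last 0.08, and the α9k1 effect after crush was 0.52 ± 0.21 (adjusted p = 0.046), with the opposite sign.

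Trpc1 (ENSMUSG00000032839, chromosome 9, 95705082 to 95750375, minus strand), a canonical TRP subunit that forms channels with other TRPC proteins, was 4.60, 4.17, 4.46 and 3.97 in α9k1-crush. It was 3.55, 3.42, 2.66 and 3.44 in GFP-crush, so that the crush groups did not overlap, as for 40.8% of all genes in this comparison. All α9k1-crush libraries were also above those of both naive groups, which ranged from 3.10 to 3.80 (GFP-naive) and from 2.93 to 3.95 (α9k1-naive). In α9k1-crush versus α9k1-naive, 33.4% of all genes did not overlap. Whether the groups differed depended on the covariates: the α9k1 effect after crush was 1.03 ± 0.24 (adjusted p = 0.0015) without them and -0.14 ± 0.49 (adjusted p = 0.966) with them. Without injury the α9k1 effect was -0.49 ± 0.22 (adjusted p = 0.132) and -0.04 without covariates, and it passed without α9k1-naive replicate 6 (-0.81, adjusted p = 0.083) and without α9k1-crush replicate 1 (-0.52, adjusted p = 0.097). Its interaction was 1.07 ± 0.31 (adjusted p = 0.016) without covariates and 0.36 ± 0.46 (adjusted p = 0.796) with them.

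Piezo2 (ENSMUSG00000041482, chromosome 18, 63010213 to 63387183, minus strand), the touch and proprioception channel, was 3.44, 3.64, 3.83, 3.08 and 3.60 in GFP-naive and 1.95 to 3.42, with a median of 2.60, in α9k1-naive. Of the 6 α9k1-naive libraries, 5 were below every GFP-naive library. The log2FC was -1.13 ± 0.33 (adjusted p = 0.022), which is 2.19-fold lower, and -0.94 ± 0.23 (adjusted p = 0.004) without covariates. The call was kept in 18 of 19 fits that left out 1 library. It was lost without α9k1-naive replicate 6 (adjusted p = 0.105) and when only the libraries compared were fitted (-0.99, adjusted p = 0.176). After crush Piezo2 was 3.28, 3.37, 3.0 and 3.73 in GFP neurons and 4.2, 4.01, 4.59 and 4.07 in α9k1 neurons. The crush groups did not overlap, as for 40.8% of all genes, and the α9k1-crush libraries were above both naive groups too. In α9k1-crush versus α9k1-naive, 33.4% of all genes did not overlap. As for Trpc1, the α9k1 effect after crush passed without covariates (0.87 ± 0.27, adjusted p = 0.012) but not with them (0.55 ± 0.71, adjusted p = 0.878), although the direction was the same. The crush effect in GFP neurons was 0.03 ± 0.33 (adjusted p = 0.969), and -0.17 without covariates, and did not pass. The α9k1 effect was negative without and positive with crush, and this interaction was 1.69 ± 0.67 (adjusted p = 0.268) with covariates and 1.81 ± 0.36 (adjusted p = 0.001) without. In α9k1 neurons the difference with crush was 1.71 ± 0.59 (1.64 without covariates), given without a test.

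P2rx3 (ENSMUSG00000027071, chromosome 2, 84998583 to 85037462, minus strand), the ATP-gated channel of nociceptors, was the member that fell with crush in GFP neurons. It was 7.41, 6.88, 6.88, 6.93 and 6.78 in GFP-naive and 5.34, 5.61, 6.37 and 6.56 in GFP-crush. These groups did not overlap, as was true of 19.8% of all genes in this comparison. The log2FC was -0.82 ± 0.31 (adjusted p = 0.086), which is 1.77-fold lower, and -1.01 ± 0.25 (adjusted p = 0.009) without covariates. The call was kept in 10 of 19 fits that left out 1 library. It was lost, with adjusted p from 0.104 to 0.273, without GFP-crush replicate 1 or 2, GFP-naive replicate 1, 2, 3 or 4, α9k1-crush replicate 3 or 4, or α9k1-naive replicate 4, and was -0.60 without GFP-crush replicate 2. It was also lost with only the libraries compared (-1.03, adjusted p = 0.210), with quantile normalization (-0.80, adjusted p = 0.104), with library medians subtracted (-0.69, adjusted p = 0.128) and with array weights (-0.74, adjusted p = 0.116). Beside it, 4 of 10 pan-neuronal genes were higher and 0 lower with crush in GFP neurons, where 7.39% and 15.7% of all genes were. The part of the pan-neuronal genes in the P2rx3 value was not tested. Markers of non-peptidergic nociceptors had a summed level (log2) of 7.33 to 7.67 in GFP-naive and 6.90 to 7.34 in GFP-crush. Of the 7 genes, 1 was called lower and 0 higher, and their median log2FC was -0.22, beside -0.08 over all genes. Mrgprd, the receptor that defines this class, had a log2FC of -0.81 (adjusted p = 0.357), while Cd55 had 0.29 (adjusted p = 0.615) and Plxnc1 had 0.30 (adjusted p = 0.369). Fewer cells of a type and less RNA per cell cannot be told apart in such bulk libraries. P2rx3 was 5.94, 6.86, 6.63 and 6.14 in α9k1-crush and 6.85 to 7.74 in α9k1-naive. Its α9k1 effect did not pass without injury (0.14 ± 0.31, adjusted p = 0.787) or after crush (-0.18 ± 0.67, adjusted p = 0.968). Without covariates these were 0.16 and 0.42. P2rx3 shares 51 exonic bases with Ssrp1 on the opposite strand in the mouse annotation.

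Asic1 (ENSMUSG00000023017, chromosome 15, 99670718 to 99701127, plus strand) and Asic3 (ENSMUSG00000038276, chromosome 5, 24413392 to 24417835, plus strand), the acid sensors, passed in no test of the fit with covariates, nor of that without. Asic1 was between 5.75 and 6.41 in GFP-naive, 5.16 and 6.45 in α9k1-naive, 5.63 and 6.74 in GFP-crush, and 6.38 and 6.77 in α9k1-crush. All 4 groups overlapped, and the α9k1 effect was -0.08 ± 0.31 without injury and -0.58 ± 0.67 after crush, with a crush effect in GFP neurons of 0.17 ± 0.31. Without covariates these were -0.02, 0.35 and 0.13. Asic3, the main acid sensor of muscle afferents, was 7.64, 7.88, 7.33, 7.42 and 7.54 in GFP-naive and 8.17, 8.24, 7.92 and 7.53 in GFP-crush. In α9k1-crush it was 8.65, 6.85, 8.72 and 8.37, so that replicate 2 was below all GFP-crush libraries and the others were above them. This replicate had the highest Trpv1 and, with 12.27, the highest summed peptidergic markers of its group. The log2FC of Asic3 were -0.62 ± 0.33 (adjusted p = 0.195), -1.14 ± 0.71 (adjusted p = 0.673) and 0.24 ± 0.33 (adjusted p = 0.667) in the same order, and -0.35, 0.18 and 0.40 without covariates. Without α9k1-crush replicate 2, its α9k1 effect without injury was -0.50 and passed with an adjusted p of 0.093.

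**Figure D2:**
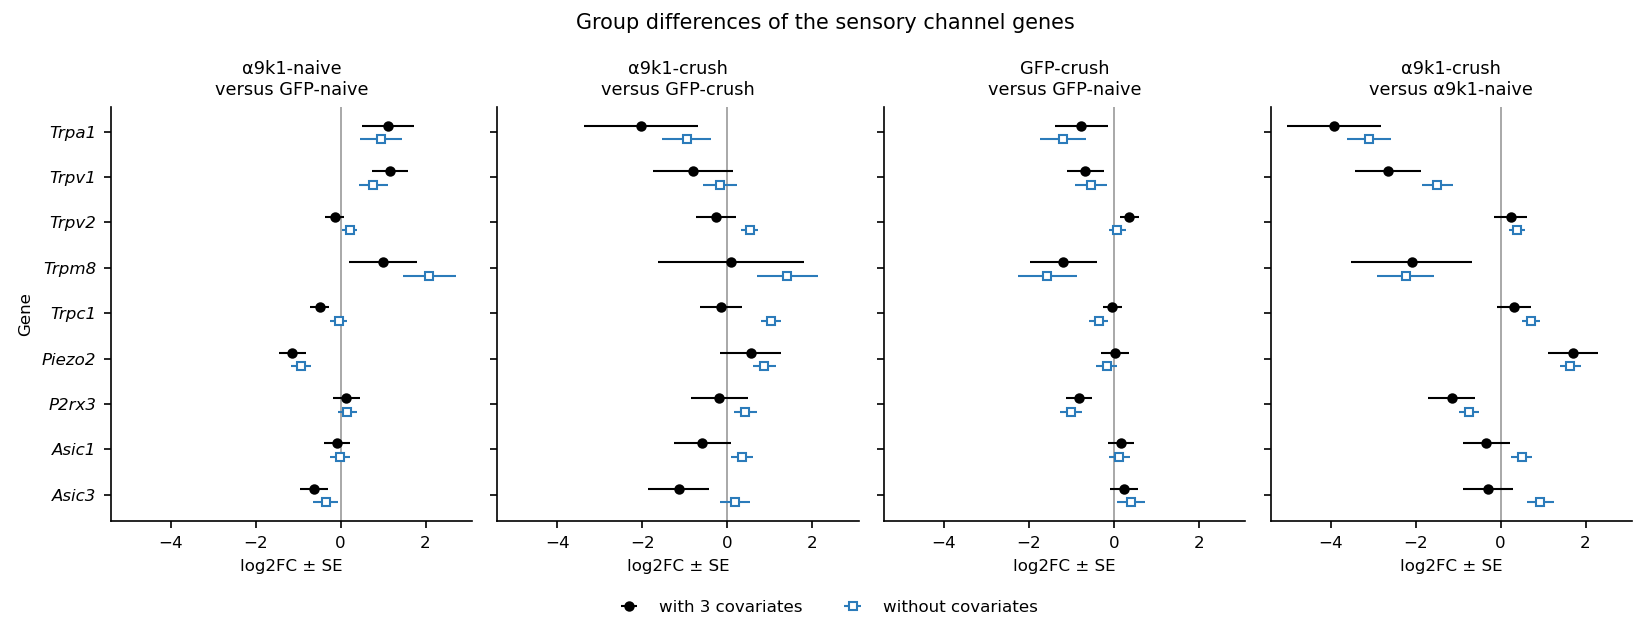
log2FC ± SE (x axis) of the 9 channel genes (y axis) in the 4 comparisons, with 3 covariates (filled circles) and without (open squares). With covariates the SE of the α9k1 effect after crush is the widest, from 0.48 for Trpv2 to 1.73 for Trpm8, and Trpv2, Trpc1, P2rx3, Asic1 and Asic3 change sign between the fits there. The comparison α9k1-crush versus α9k1-naive is the one from which Trpa1 was chosen and is a description.

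The comparison α9k1-crush versus α9k1-naive chose Trpa1 and with it the members, so what follows describes the choice and is no test of it. Of the 9, 2 had values past the threshold of the fit, both lower, where 9.74% of all genes did (4.47% higher and 5.27% lower). Without covariates it was 7 of the 9, beside 55.6% of all genes, and for 3 of the 9 these groups did not overlap, beside 33.4%. The interaction contains α9k1-crush versus α9k1-naive, so its counts and p-values are descriptions too. It was called for 0 of 8 members, against 2.2% of all genes (1.35% higher and 0.847% lower). Of these 8, 2 had an unadjusted limma p under 0.05 (Trpv1 and Piezo2), and 2 were called without covariates (Trpc1 and Piezo2), where 39.4% of all genes were. The spread within groups set the members apart from each other. The SD within groups was 1.12 for Trpm8, 0.88 for Trpa1 and 0.61 for Trpv1, at percentiles 98.6, 97.4 and 94.5 of all genes, and 0.31 for Trpv2 at percentile 70.6. The median over all genes was 0.24. The other 5 members were between 0.35 (Trpc1) and 0.53 (Asic3).

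Genes most like Trpa1 were those with the smallest root mean square difference of values centred per gene over the 19 libraries. They were Tac1 (0.53), the precursor of substance P, Clic3 (0.58), an intracellular chloride channel protein, Npy1r (0.59), a neuropeptide Y receptor, Gfra3 (0.61), the artemin receptor, and Chrne (0.67), an acetylcholine receptor subunit. The median difference over all genes was 1.46. Among members, Trpv1 ranked 20 (0.86) and P2rx3 ranked 286 (1.06) of all genes, while Trpm8 ranked 7256 and Piezo2 ranked 12073. Tac1 was 6.71, 10.85, 9.65 and 8.15 in α9k1-crush and 10.64, 7.94, 11.50 and 10.25 in GFP-crush, so that the libraries low for Trpa1 (α9k1-crush replicates 1 and 4 and GFP-crush replicate 2) were the lowest for Tac1 too. Gfra3 had the same lowest libraries, with 3.03 and 3.12 in α9k1-crush and 4.68 in GFP-crush. These genes were picked for their likeness, so their values describe the pattern and do not test it.

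**Figure D3:**
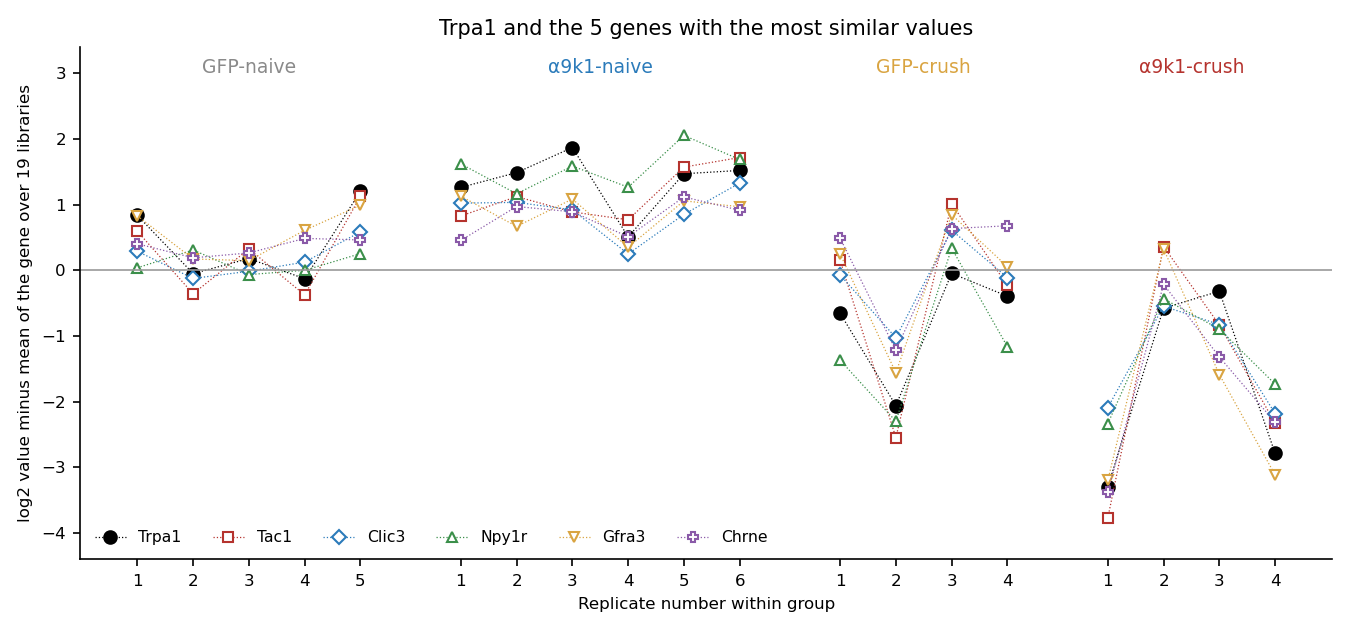
Trpa1 and the 5 genes with the most similar values, as log2 value minus the mean of the gene over 19 libraries (y axis), for each library (x axis, replicate number within group). Dotted lines join libraries of a group for reading only, since replicates have no order. All 6 genes were lowest in GFP-crush replicate 2 among GFP-crush, and in α9k1-crush replicates 1 and 4 among α9k1-crush.

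Marker lists of the larger neuronal classes are given by their summed level in each library. The 8 peptidergic markers, among them Calca and Tac1, were at 12.56 to 13.33 in α9k1-naive, 11.80 to 12.75 in GFP-naive, 11.53 to 12.79 in GFP-crush, and 9.41, 12.27, 11.79 and 11.94 in α9k1-crush. The low library is α9k1-crush replicate 1, which was also the lowest for Trpa1, Trpv1 and Trpm8. Of these 8, 1 passed for the α9k1 effect without injury (Adcyap1, 1.35 higher). Non-peptidergic markers were at 6.96 to 8.03 in α9k1-naive and at 6.70, 7.70, 7.29 and 6.62 in α9k1-crush. The 14 markers of large myelinated neurons, in which Piezo2 is prominent, were at 12.67 to 13.04 in GFP-naive, 12.31 to 12.54 in α9k1-naive, 13.15 to 13.89 in GFP-crush and 13.41 to 13.94 in α9k1-crush. For the α9k1 effect without injury 7 of them were lower, including Nefh (-2.32), Nefm (-2.42) and Nefl (-2.10), and 2 were higher, while 6 were higher and 1 lower with crush in GFP neurons. Over all genes 11.4% were higher and 17.6% lower in the former, and 7.39% and 15.7% in the latter. The gene of highest level was Nefl in GFP-naive and Spp1 in α9k1-naive. Spp1 had means of 10.45 and 11.64 there, so the sums of these groups mix opposite moves. The list of cold receptors (4 genes) shares Tac1, its gene of highest level, with the peptidergic list, so its summed level is not given. For the α9k1 effect without injury 1 of the 4 was higher (Foxp2, 0.83) and 0 lower, and with crush in GFP neurons 0 were higher and 1 lower (Cdh8, -1.03). Penk had group means of 4.41 in GFP-naive, 4.24 in α9k1-naive, 4.49 in GFP-crush and 3.54 in α9k1-crush, where its SD was 2.32.

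Of 3 pruriceptor markers 2 were higher for the α9k1 effect without injury, Nppb (1.62), a transmitter of itch neurons, and Osmr (1.87), the oncostatin M receptor. The other was Sst, with a log2FC of -1.76 that did not pass (adjusted p = 0.132, limma) and means of 6.88 in GFP-naive and 4.21 in α9k1-naive. In the same comparison 1 of 3 markers of C-low-threshold mechanoreceptors was lower (Fam19a4, -1.70), and the median of the list was -1.04. Over all genes 11.4% were higher and 17.6% lower in this comparison.

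Other cell types moved with the groups as well. Satellite glia markers (8 genes) were at 15.56 to 15.94 in GFP-naive, 16.27 to 16.78 in α9k1-naive, 14.65 to 14.96 in GFP-crush and 14.11 to 14.69 in α9k1-crush. Apoe set most of this sum, with means of 15.63 in GFP-naive and 16.46 in α9k1-naive, while Sox10 had means of 8.37 and 6.78. Of the 8, 4 were higher and 1 lower for the α9k1 effect without injury, and 5 were lower with crush in GFP neurons. Schwann cell markers (8 genes) were at 13.25 to 13.58, 11.94 to 12.31, 13.44 to 14.05 and 12.64 to 13.52 in the same order of groups. Macrophage markers (9 genes) were at 7.61 to 8.12, 8.98 to 9.60, 9.34 to 9.91 and 9.13 to 10.01, and 7 of the 9 were higher for the α9k1 effect without injury, as were 7 for the crush effect in GFP neurons. All 5 measured markers of endothelial cells and fibroblasts were lower with α9k1 without injury and 3 were lower with crush in GFP neurons. Itgam, Pecam1, Cdh5, Kdr and Pdgfra were not among the genes of the table. These lists moved in the comparisons in which Trpv1, Piezo2 and P2rx3 passed, and their part in the channel values was not tested. Of 77 marker genes, 19 were higher and 21 lower for the α9k1 effect without injury, and 18 were higher and 12 lower with crush in GFP neurons. Over all genes 11.4% were higher and 17.6% lower in the former comparison, and 7.39% and 15.7% in the latter. After crush 1 of the 77 marker genes passed for the α9k1 effect (Egr2, a Schwann cell factor, 2.76 higher), and 37 passed without covariates, where 58% of all genes did.

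**Figure D4:**
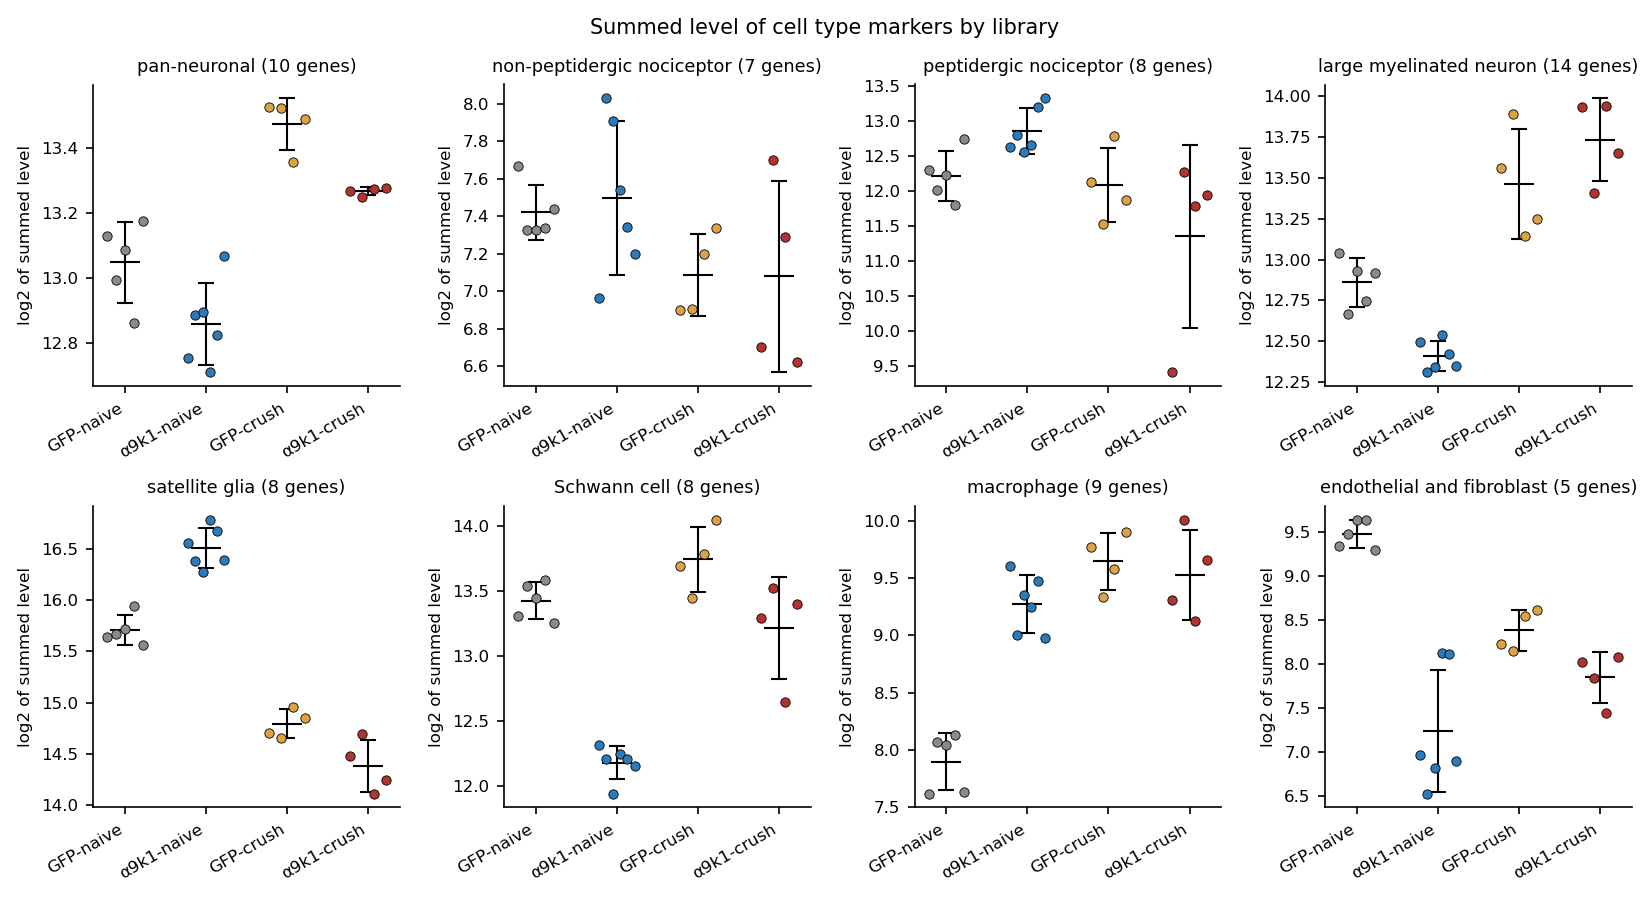
Summed level of 8 marker lists, as log2 of the sum of linear values (y axis), in the 19 libraries by group (x axis). Points are libraries, bars and whiskers are the group mean ± SD, and the y axes differ between panels. Peptidergic markers were lowest, at 9.41, in α9k1-crush replicate 1, and large myelinated markers were lowest in α9k1-naive.

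Related genes of the channel families, their partners and the receptors that sensitize them were listed by family and role, with earlier results of these data known, and 50 of 87 were measured. For the α9k1 effect without injury 7 were higher and 10 lower (34% of the 50, beside 29.1% of all genes). The 5 with the largest differences were Ptger4, a prostaglandin E receptor that sensitizes TRPV1 (1.67 ± 0.33, adjusted p = 0.0022), the ATP receptor P2rx7 (-1.45 ± 0.25), Stom, a membrane protein that binds ASIC channels (1.30 ± 0.21), P2rx6 (-1.26 ± 0.44) and the ADP receptor P2ry1 (-1.25 ± 0.49, adjusted p = 0.081). Of the 5 other P2X receptors measured, 3 were lower (P2rx5, P2rx6 and P2rx7) and none higher, with a median of -1.05. P2rx2, the usual partner of P2X3, was -0.51 ± 0.46 and did not pass. Of 17 partners and kinases, Stom and Akap5 were higher, and Prkca, Prkce, Prkaca and Calm3 were lower. Of 13 sensitizing receptors, Ptger4, Bdkrb2 and Tnfrsf1a were higher and P2ry1 and P2ry2 lower. Of the other families, Trpm2 (0.80) and Tmem120a (0.52) were higher and Tmem63b (-0.45) was lower, and Asic2 had a value of -0.95 that did not pass. Akap5, a scaffold that brings kinases to TRPV1, was 1.20 ± 0.28 with covariates and 0.06 without.

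With crush in GFP neurons 1 of the 50 was higher (Prkaca, 0.49) and 10 were lower, which is 22% beside 23.1% of all genes. Among the largest were Lpar1 (-1.02 ± 0.14), a lysophosphatidic acid receptor, Il6st (-0.77 ± 0.17), the shared receptor of interleukin-6 cytokines, Trpm7 (-0.76 ± 0.19) and the heat-sensitive channel Trpm3 (-0.75 ± 0.17, adjusted p = 0.011). Tmc7, Stom, Prkca, Prkce and Nedd4 were lower too. For the α9k1 effect after crush limma called 0 of the 50, of which 1 had an unadjusted p under 0.05, and 30 passed without covariates, where 58% of all genes did. Among those 30 was Il6st, at 6.77 to 6.97 in α9k1-crush and 4.92 to 5.57 in GFP-crush. The interaction called 0 of the 50 as well, with 7 at an unadjusted p under 0.05 and 21 called without covariates, where 39.4% of all genes were.

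**Figure D5:**
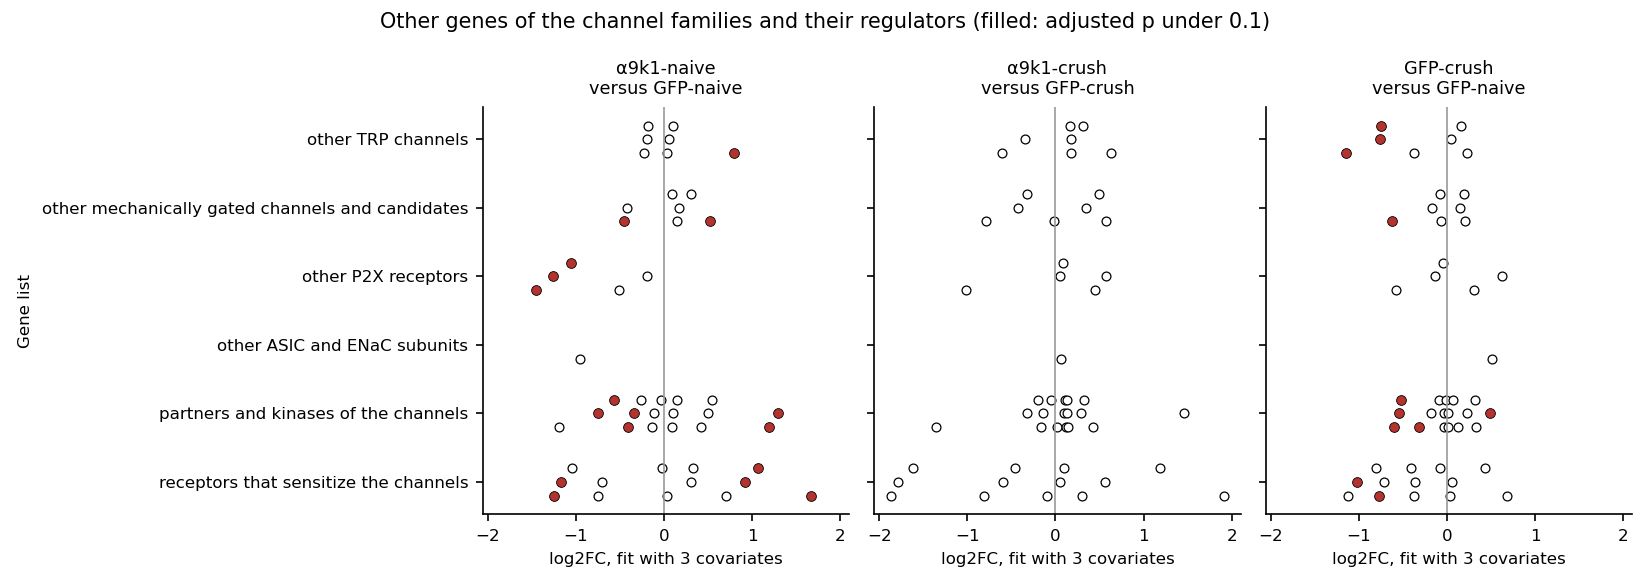
log2FC from the fit with 3 covariates (x axis) of 50 related genes in 6 lists (y axis) in 3 comparisons. Each point is a gene, and filled points passed at an adjusted p under 0.1. Filled points are 7 higher and 10 lower genes for the α9k1 effect without injury, 0 for that after crush, and 1 higher and 10 lower genes for the crush effect in GFP neurons.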

How the data were processed

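RNA-seq of 19 libraries was grouped by the labels. Per the methods of the study, the authors made libraries with SMART-Seq v4, aligned reads to mm10/GRCm38 with STAR, collected metrics with Picard, counted reads per gene with Salmon, removed genes with few reads, and turned counts plus a small constant into log2 values that cqn then normalized. Versions are not given in the sources used here. The deposited log2 values range from -0.77 to 16.7 and carry no gene names, so gene order was taken from the authors' gene table, and Fermt1 and Itga9 were checked. That table also holds the authors' fold changes and p-values, which were not used. The deposited table of library metrics holds read and base counts, fractions, percentages (AT and GC dropout) and ratios, as the authors' Picard run gave them.

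One fit with limma 3.58.1 (R 4.3.3) took all 19 libraries, 4 group means and the first 3 principal components of 48 scaled metrics (45.9%, 24.1% and 11.5% of variance), with Benjamini-Hochberg adjustment over 12629 genes and residual df of 12. It was tested on simulated data. The study's model has batch, which the sample table does not give, so batch was left out and cannot be told apart from the groups here. The members and all lists were chosen with earlier results of these data known. As α9k1-crush versus α9k1-naive chose the members, no p is given for a member there and its counts past the threshold are descriptions. The interaction contains that comparison, so its p-values and counts for members are descriptions as well. Trpa1 has a p only in GFP-crush versus GFP-naive. Named genes are the 9 members, the 5 called related genes with the largest log2FC in each tested comparison and those that complete a small count, the 5 genes most like Trpa1 by root mean square difference, the markers with the highest levels, and Fermt1 and Itga9. Other marker and related genes given with values (such as Adcyap1, Nefh, Nppb, Osmr, Sst, Fam19a4, Foxp2, Cdh8, Penk, Mrgprd, Plxnc1, P2rx2 and Akap5) were picked after their values were seen. Some genes that these rules name are not reported here. Promoters and the 6 motifs are from RefSeq (GRCm38.p6). Tables and figures were made with Python 3.11.15, pandas 2.3.3, numpy 2.4.6 and matplotlib 3.10.9. The alternatives were no covariates, only the groups compared, removal of the lowest 25% of genes, quantile normalization, subtraction of library medians, array weights, a replicate block and each library left out.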

Additional observations from a re-analysis of the deposited data

Results flagged for a closer look

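Of 36 groups of libraries (9 channels in 4 groups), 5 had a library far from the others of its group by Dixon's test, which chance gives in about 1 of 20 groups. Trpv1 was lowest, at 5.82, in α9k1-naive replicate 4. Trpc1 was lowest in replicate 3 of both GFP groups, at 3.10 in GFP-naive and at 2.66 in GFP-crush. P2rx3 was highest, at 7.41, in GFP-naive replicate 1. Asic1 was highest, at 6.77, in α9k1-crush replicate 1.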

How the results depend on the processing

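Of the member values recomputed under the alternatives, 1050 kept their direction and side of the threshold or moved by less than the SD within groups, 23 lost a call, 12 gained one, 25 untested values moved by more and 51 outside α9k1-crush versus α9k1-naive changed sign. Where values changed, the cause was not tested. The number of members called was 2 for the α9k1 effect without injury (1 to 4 with a library left out), 0 for that after crush (0 to 0), 1 for the crush effect in GFP neurons (0 to 2), 2 in α9k1-crush versus α9k1-naive (0 to 3, a description, as this comparison chose the members), and 0 for the interaction (0 to 1). Without covariates these counts were 3 after crush, 7 in α9k1-crush versus α9k1-naive and 2 for the interaction. With only the groups compared they were 0 for the crush effect in GFP neurons and 0 in α9k1-crush versus α9k1-naive, where calls over all genes went from 933 higher and 1984 lower to 262 and 662, and from 565 and 665 to 64 and 138. The crush effect had 0 called with quantile normalization, 0 with library medians subtracted and 0 with array weights. Subtracting medians moved the median crush effect of all genes in GFP neurons from -0.08 to 0.06, and calls over all genes from 933 higher and 1984 lower to 1826 higher and 1180 lower (1206 and 1373 with quantile normalization).

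Outside α9k1-crush versus α9k1-naive, values that changed sign without covariates were, for the α9k1 effect without injury, Trpv2 (0.21), after crush Trpv2 (0.52), Trpc1 (1.03), P2rx3 (0.42), Asic1 (0.35) and Asic3 (0.18), for the crush effect Piezo2 (-0.17), and for the interaction Trpv2 (0.31), P2rx3 (0.27), Asic1 (0.37) and Asic3 (0.53). With only the groups compared they were Trpv2 (0.0026), P2rx3 (-0.048) and Asic1 (0.088) without injury, Trpv1 (0.082), Trpv2 (0.69), Trpc1 (0.68) and P2rx3 (0.28) after crush, and Trpc1 (0.21) and Piezo2 (-0.16) for the crush effect. The crush effect of Trpc1 was 0.12 with quantile normalization and 0.10 with medians subtracted. Trpm8 after crush was -0.00045 with quantile normalization and -0.55 with array weights. Of these and the block values below, 2 of 26 passed the threshold.

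With a library left out, 25 values outside α9k1-crush versus α9k1-naive changed sign, of which 0 passed the threshold. Their ranges were, for the α9k1 effect after crush, -1.35 to 1.37 for Trpm8, -0.48 to 0.063 for Trpc1 and -0.85 to 0.092 for P2rx3. For the crush effect they were -0.15 to 0.11 for Trpc1, -0.14 to 0.20 for Piezo2 and -0.11 to 0.39 for Asic1, and for the α9k1 effect without injury -0.57 to 0.086 for Asic1. For the interaction they were -0.39 to 0.10 for Trpv2, -2.19 to 0.19 for Trpm8 and -0.88 to 0.014 for P2rx3. In α9k1-crush versus α9k1-naive, which was not tested, the sign changed for Asic1 (0.50) and Asic3 (0.94) without covariates, and for Trpc1 (-0.17) and Asic3 (0.26) with only the groups compared. With a library left out the values there ranged from -0.55 to 0.027 for Asic3 and from -0.0092 to 0.37 for Trpv2.

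Libraries of different groups share replicate numbers, but these do not pair them: the 25 pairs with the same number had correlations of deviations from -0.27 to 0.15 (median 0.020, against 0.00022 for 109 other pairs), and a library correlated best with its own number in 12 of 50 cases. With the replicate block, 1 member was called for the α9k1 effect without injury and 0 in α9k1-crush versus α9k1-naive, where calls over all genes went from 1445 higher and 2224 lower to 1132 and 1314, and from 565 and 665 to 155 and 176. Asic3 passed without injury (-1.24, adjusted p = 0.011), Trpv1 (1.58) and Piezo2 (-1.08) did not, and the α9k1 effect after crush changed sign for Trpv1 (0.17) and Trpm8 (-1.66), as did Asic1 (0.09) in α9k1-crush versus α9k1-naive.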
